A study of Mus musculus with 12 samples.

Results

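Transcripts of 9 mouse genes of major histocompatibility complex (MHC) class I antigen presentation were followed in mammary tissue that carried different numbers of Stat5a and Stat5b alleles. They are the heavy chain genes H2-Q10, H2-K1, H2-D1, H2-T23 and H2-M3, the light chain gene B2m, and the peptide loading genes Tap1, Tap2 and Tapbp. Every probe set whose platform gene symbol is or includes one of these names was taken, which gave 29 of the 45037 probe sets on the arrays other than controls, 24 of them named by 1 gene symbol and 5 by several. H2-Q10 was chosen by its measured log2 signal, which was already known to differ between the single-Stat5b and single-Stat5a genotypes, so that difference is described here with no test. The question put to the other genes was whether they share that step.

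A class I molecule is a heavy chain paired with beta-2-microglobulin that shows peptides from inside the cell to T cells and natural killer cells. Peptides made by the proteasome are pumped into the endoplasmic reticulum by the transporter built from Tap1 and Tap2, and tapasin, the product of Tapbp, holds the empty molecule beside the transporter until a peptide fits. H2-K1 and H2-D1 encode the classical heavy chains of nearly all nucleated cells, and H2-Q10 encodes a secreted class I protein known mainly from the liver. Interferons raise the transcription of most of these genes, and Stat5a and Stat5b encode transcription factors activated by prolactin in the mammary epithelium.

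The study set 4 genotypes side by side, with tissue of 3 mice each taken on day 6 after a mating plug and 1 array per mouse. Single-Stat5b mice (labelled Stat5abnull/Stat5a-) kept 0 Stat5a and 1 Stat5b allele, and single-Stat5a mice (Stat5abnull/Stat5b-) kept 1 Stat5a and 0 Stat5b alleles. Mice labelled Stat5a-/- kept both Stat5b alleles and 0 of Stat5a, while the Stat5ab+/null genotype has 1 allele of each gene. All groups shared a mix of the FVB, 129 and C57BL/6 strains, and wild-type arrays were not analysed here. The design names whole mammary tissue, although other label text mentions cell sorting and PolyIC given to induce Mx1-Cre, and the labels do not settle whether either applied to these mice.

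The arrays form 2 sets that follow the allele total, the single-allele genotypes in one and the 2-allele genotypes in the other. Over all probe sets, Pearson's r ran between 0.818 and 0.883 for pairs of arrays from different sets, and between 0.957 and 0.993 for pairs of 1 genotype. A measure of RNA and labelling quality, the actin control's 3′ signal less its 5′ signal, was 2.16 to 3.78 in single-Stat5b, 2.16 to 3.07 in single-Stat5a, 0.13 to 0.16 in the arrays labelled Stat5a-/- and 0.19 to 0.27 in Stat5ab+/null, all on the log2 scale. Since each genotype lies in 1 set alone, allele total and array set cannot be told apart, and differences are tested within a set. Of the targeted genes, the brighter Stat5a probe set (1421469_a_at) averaged 10.98 in single-Stat5b and 12.21 in single-Stat5a, lower in the genotype without a Stat5a allele. The other Stat5a probe set (1450259_a_at) averaged 5.05 in single-Stat5b and 5.29 in single-Stat5a, and its difference of -0.24 was not called (limma adjusted p = 0.777). The brighter Stat5b probe set (1422103_a_at) differed by 0.20 (adjusted p = 0.738) and the other (1422102_a_at) by 0.64 (0.0539), as single-Stat5b minus single-Stat5a. Between the 2-allele genotypes all 4 probe sets ran against the labels: the arrays labelled Stat5a-/- were higher than Stat5ab+/null by 0.39 (1421469_a_at) and 0.56 (1450259_a_at) in Stat5a, and differed by -0.25 (1422102_a_at) and -0.31 (1422103_a_at) in Stat5b, with an adjusted p = 1.00 for each. If the letters in the sample titles count alleles, they go against the genotype labels too: ABB stands in titles of the Stat5a-/- label and AAB in those of Stat5ab+/null. The genotype labels were followed, and the place of the probes relative to the deleted part was not given in them. Markers of luminal epithelium averaged 10.26 to 11.9 per array and those of white adipocytes 12.0 to 13.8, both high, as whole mammary tissue would hold. In bulk tissue, fewer cells of a type and less RNA per cell cannot be told apart.

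The stretch of DNA just before the start of the 3 genes whose signals moved most or stand closest to them is shown first, because it lets H2-Q10 be read beside the classical heavy chain genes it resembles. The sequences are from RefSeq on GRCm38.p6, 250 bases up to the annotated start: chr17:35469839-35470088 on the plus strand for H2-Q10, chr17:35262844-35263093 on the plus strand for H2-D1, and chr17:34000348-34000597 on the minus strand for H2-K1. Capitals mark matches to 3 of the 4 motifs searched on both strands, GGGNNTTCC (a core of the kappa B motif of the class I enhancer A), TTTCNNTTC (a core of the interferon response element) and TGACGC (a core of the cyclic AMP response element), with N for any base. The fourth motif, TTCNNNGAA, is the palindrome that STAT dimers bind. No matches overlapped each other in the members' windows.
H2-Q10: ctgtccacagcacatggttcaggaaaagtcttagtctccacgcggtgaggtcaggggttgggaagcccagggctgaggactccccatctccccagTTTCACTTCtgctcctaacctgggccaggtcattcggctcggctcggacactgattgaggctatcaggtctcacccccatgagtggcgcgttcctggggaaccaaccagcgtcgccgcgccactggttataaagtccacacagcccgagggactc
H2-D1: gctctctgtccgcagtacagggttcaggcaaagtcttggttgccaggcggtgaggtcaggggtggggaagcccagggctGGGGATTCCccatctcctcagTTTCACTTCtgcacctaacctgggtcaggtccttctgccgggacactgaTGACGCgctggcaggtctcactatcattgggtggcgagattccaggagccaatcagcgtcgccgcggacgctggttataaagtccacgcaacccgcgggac
H2-K1: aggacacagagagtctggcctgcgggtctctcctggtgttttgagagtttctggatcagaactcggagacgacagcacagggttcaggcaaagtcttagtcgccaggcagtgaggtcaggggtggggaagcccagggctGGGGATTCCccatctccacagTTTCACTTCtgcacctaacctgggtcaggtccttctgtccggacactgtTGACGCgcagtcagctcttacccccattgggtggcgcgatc
In a pairwise alignment H2-Q10 matched H2-D1 at 209 of 240 aligned bases (87.1%) and H2-K1 at 165 of 183 (90.2%), while H2-K1 and H2-D1 matched at 91.6%. For comparison, H2-Q10 matched the unrelated B2m window at 72.3% of aligned bases, since gaps were allowed.

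The kappa B core GGGNNTTCC stood in the windows of H2-D1 (171 bases before the start, position -171) and H2-K1 (position -111) and not in that of H2-Q10. It was in 4.98% of the 32851 promoter windows of the same length. TTTCNNTTC stood in all 3, at -155 in H2-Q10, -150 in H2-D1 and -90 in H2-K1, and in 6.31% of windows. TGACGC stood in H2-D1 at -101 and in H2-K1 at -41 but not in H2-Q10, and in 6.12% of windows. H2-M3 held TTTCNNTTC, TGACGC and the STAT palindrome TTCNNNGAA, which 7.02% of windows hold; the windows of B2m, Tap1, Tapbp and H2-T23 held none of the 4. H2-K1 has 2 annotated starts, of which one is shown, and the other window held the same 3 motifs. No match says only that these letters are not in these 250 bases.

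H2-Q10 stood apart in single-Stat5a. Its probe set (1425137_a_at) read 5.10, 5.22 and 5.26 in the single-Stat5b arrays, against 9.99, 10.36 and 9.69 in the single-Stat5a arrays, as log2 signal. It read 6.07, 5.71 and 5.90 in the arrays labelled Stat5a-/-, against 5.45, 5.84 and 5.89 in Stat5ab+/null. All 3 single-Stat5a arrays lay above the other 9, and the 2-allele groups overlapped each other. The log2 difference was -4.82 (SE 0.19) for single-Stat5b minus single-Stat5a, a signal 28.2-fold lower in single-Stat5b, given without a test since H2-Q10 was chosen for it. For Stat5a-/- minus Stat5ab+/null it was 0.17 (95% interval -0.25 to 0.59; limma adjusted p = 1.00). The means of single-Stat5b (5.19), the arrays labelled Stat5a-/- (5.89) and Stat5ab+/null (5.73) lie under the 30th percentile of mean probe set signal (log2 6.04), so the difference is a lower bound if that level is background, which was not measured.

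**Figure D1:**
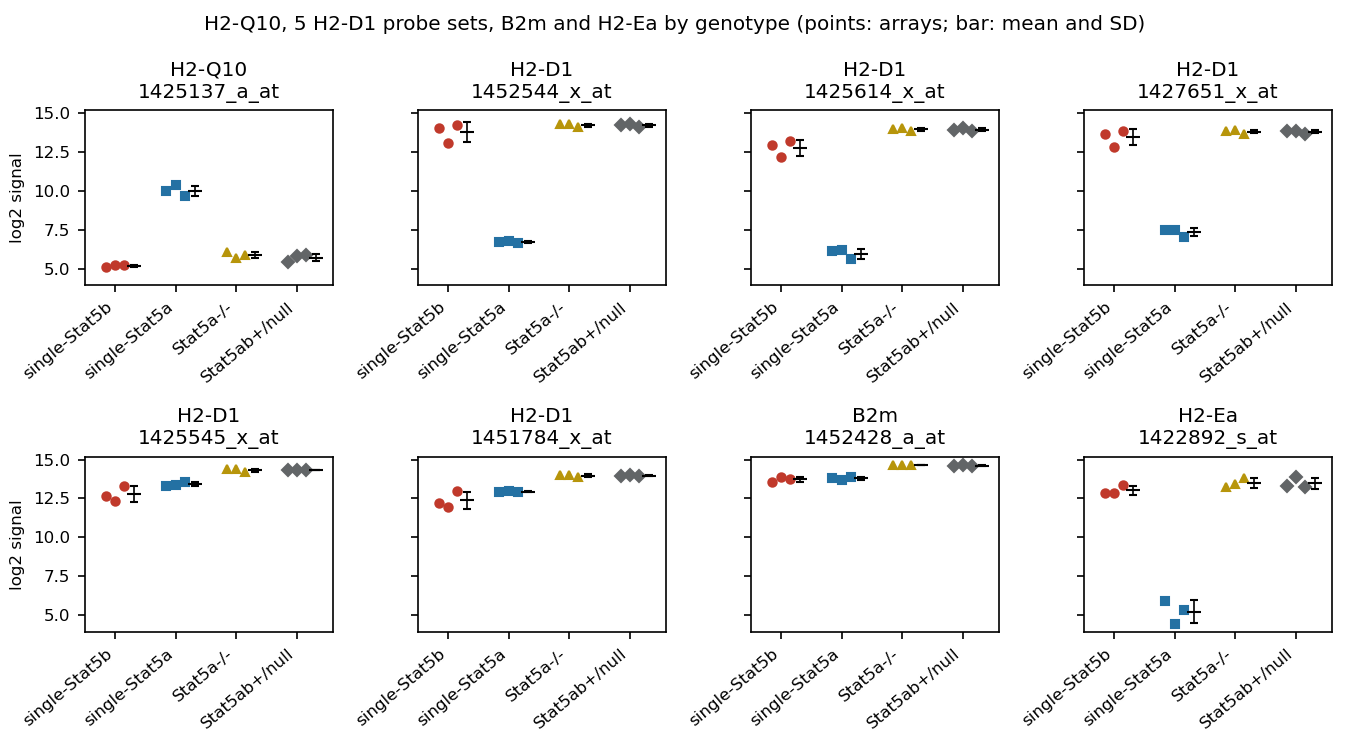
Log2 signal (vertical axis) of H2-Q10, 5 H2-D1 probe sets, B2m and H2-Ea in the 4 genotypes (horizontal axis); points are the 3 arrays of a genotype and the bars beside them the mean and SD. H2-Q10 is high only in single-Stat5a (9.69 to 10.36), and 3 H2-D1 probe sets and H2-Ea are low only there. The other 2 H2-D1 probe sets are high in both single-allele genotypes, with uncalled differences of -0.65 (1425545_x_at) and -0.56 (1451784_x_at) as single-Stat5b minus single-Stat5a. B2m (1452428_a_at) differs by -0.06.

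H2-Q10 is known as a liver product, so liver genes are set beside it. Of 18 hepatocyte marker probe sets, 6 were called between single-Stat5b and single-Stat5a: Cyp3a11 (log2 difference -3.06), Hpx (-1.76) and 2 probe sets of Apoa1 (-1.54 each) were lower in single-Stat5b, and 2 probe sets of Serpina1b were higher (2.96 and 2.47). Over all probe sets 2.70% were called. Of the 18 differences 15 were below 0, the direction of H2-Q10, with a median of -1.50. Arrays of the single-allele genotypes did not overlap for 14 of the 18, against 11.9% of all probe sets. Alb, the albumin gene and a defining liver transcript, averaged 10.56 in single-Stat5b and 10.70 in single-Stat5a, a difference of -0.14 (adjusted p = 0.951). The mean of the hepatocyte list was 7.19 to 7.32 in the single-Stat5b arrays and 7.33, 8.52 and 8.54 in single-Stat5a 1, 2 and 3. In the same single-Stat5a arrays H2-Q10 read 9.99, 10.36 and 9.69. An array labelled Stat5a-/-, of the other array set, had a hepatocyte mean of 8.33 and an H2-Q10 signal of 6.07. The part of liver transcripts in the H2-Q10 difference was not tested. All 6 liver calls were lost in at least 1 of the alternative settings; without single-Stat5a 2, for example, Cyp3a11 had an adjusted p = 0.0765 at -2.85.

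No other member took the step of H2-Q10. Of the 28 other probe sets, 4 passed the test between single-Stat5b and single-Stat5a (limma, adjusted p under 0.05 over all probe sets), and all 4 were higher in single-Stat5b, opposite in direction to H2-Q10. They are 3 probe sets of H2-D1 and 1 probe set annotated to both H2-Q5 and H2-K1. Of all probe sets, 2.70% were called in this comparison, 1.06% higher and 1.65% lower. Arrays of the 2 genotypes did not overlap for 7 of the 28, against 11.9% of all probe sets.

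The largest difference was that of the H2-D1 probe set 1452544_x_at, which read 14.06, 13.08 and 14.21 in single-Stat5b, against 6.73, 6.79 and 6.64 in single-Stat5a. It read 14.28, 14.27 and 14.09 in the arrays labelled Stat5a-/-, against 14.23, 14.27 and 14.12 in Stat5ab+/null. Every single-Stat5a array thus lay far below the other 9, which themselves sit near the top of the scale. The difference between single-Stat5b and single-Stat5a was 7.06 (SE 0.24, a 134-fold higher signal, adjusted p = 6.5e-09), and that between Stat5a-/- and Stat5ab+/null was 0.00 (95% interval -0.52 to 0.53).

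A second H2-D1 probe set, 1425614_x_at, read 12.94, 12.20 and 13.18 in single-Stat5b, against 6.13, 6.18 and 5.61 in single-Stat5a. In the 2-allele set it averaged 13.97 in the arrays labelled Stat5a-/- and 13.93 in Stat5ab+/null. The third, 1427651_x_at, read 13.67, 12.85 and 13.81 in single-Stat5b, against 7.49, 7.51 and 7.06 in single-Stat5a. Its 2-allele means were 13.80 in the arrays labelled Stat5a-/- and 13.79 in Stat5ab+/null. Both probe sets rose in single-Stat5b relative to single-Stat5a with no overlap, by 6.80 (SE 0.24, adjusted p = 7.0e-09) and 6.09 (SE 0.23, adjusted p = 1.4e-08). The single-Stat5a mean of 1425614_x_at, 5.98, lies under log2 6.04, so its difference too is a lower bound if that level is background.

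The probe set annotated to H2-Q5 and H2-K1, 1451593_at, read 9.28, 8.12 and 9.18 in single-Stat5b, against 5.91, 6.35 and 6.00 in single-Stat5a. Its means in the 2-allele set were 10.24 in the arrays labelled Stat5a-/- and 10.32 in Stat5ab+/null. It was higher in all 3 single-Stat5b arrays, by 2.78 (SE 0.36, adjusted p = 6.5e-04). Which of the 2 genes gives this signal cannot be read from the annotation.

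**Figure D2:**
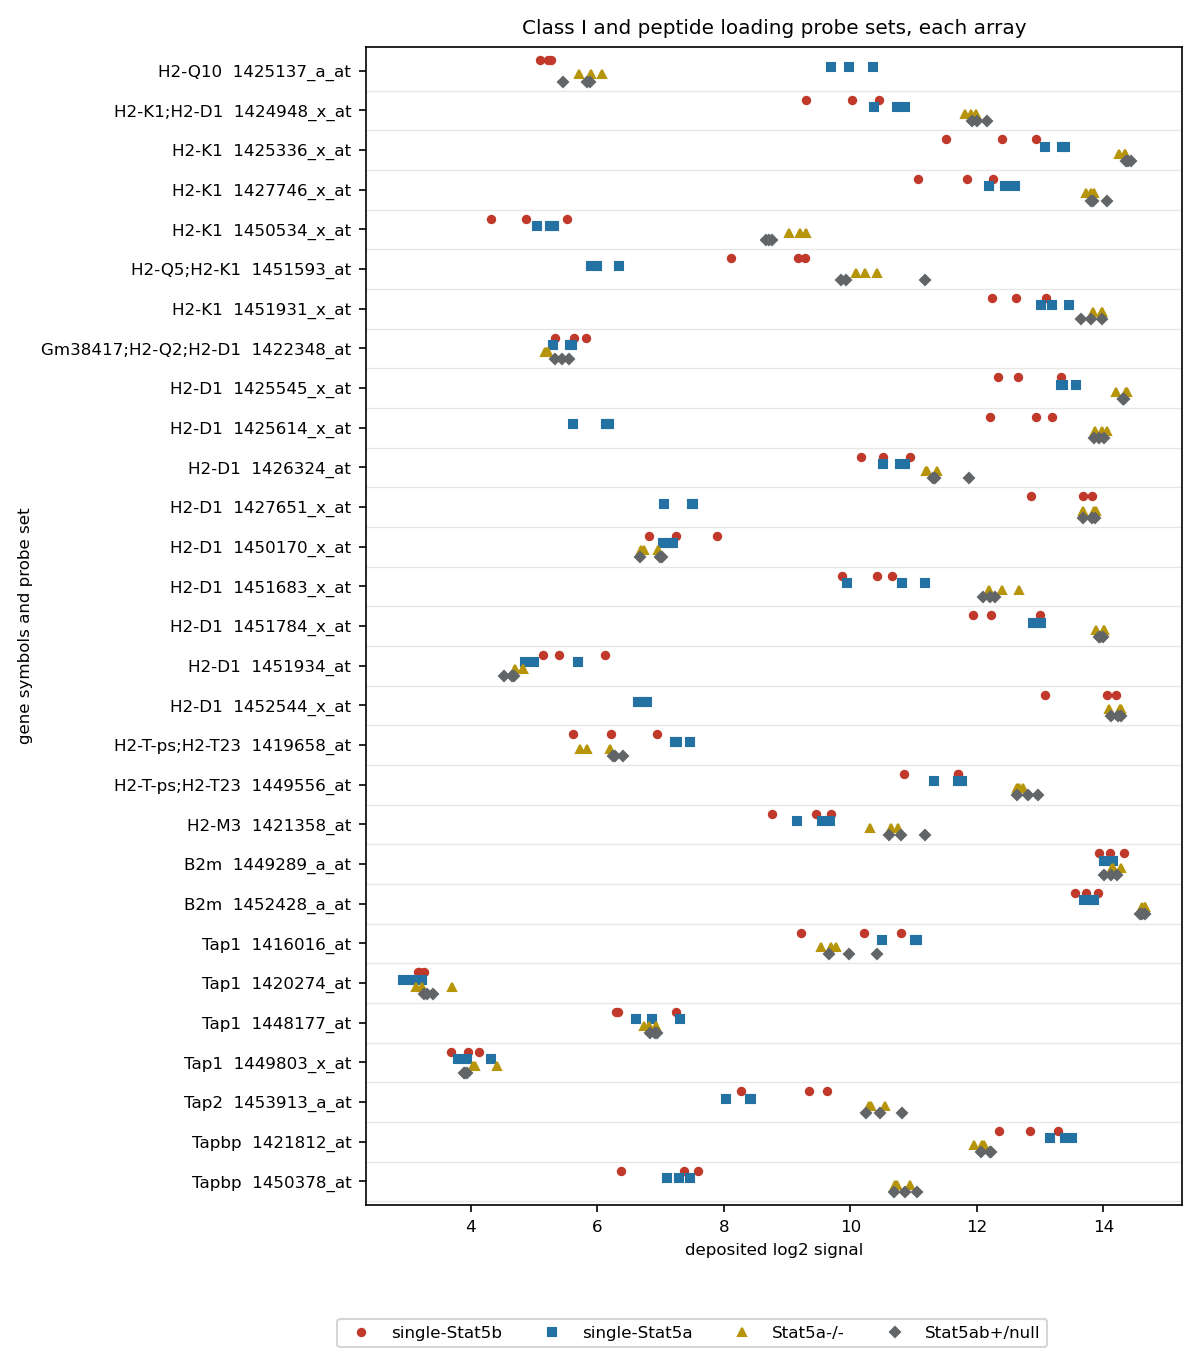
Log2 signal (horizontal axis) of all 29 probe sets (vertical axis, gene symbols and probe set) on each of the 12 arrays, coloured and shaped by genotype. The H2-Q10 row has its single-Stat5a points at the right and 4 rows (3 of H2-D1 and H2-Q5;H2-K1) have them at the left, while in most other rows the 2 single-allele genotypes lie together and the 2-allele genotypes beside them.

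The other 8 H2-D1 probe sets did not pass the test. The one with the highest mean signal, 1425545_x_at, read 12.65, 12.33 and 13.32 in single-Stat5b, against 13.32, 13.37 and 13.56 in single-Stat5a, a difference of -0.65 (95% interval -1.12 to -0.19, adjusted p = 0.181). Thus the single-Stat5a arrays were not low in this H2-D1 probe set, with a mean of 13.42. 1451784_x_at averaged 12.39 in single-Stat5b and 12.95 in single-Stat5a (-0.56, adjusted p = 0.301). The differences of the other 6 were -0.73 for 1424948_x_at, which is annotated to H2-K1 as well, -0.33 for 1451683_x_at and -0.17 for 1426324_at, and, above 0, 0.11 for 1422348_at, which is annotated to 2 further genes, 0.20 for 1450170_x_at and 0.37 for 1451934_at. Of the 11 H2-D1 probe sets, then, 3 were called and 8 were not, and 6 differences were above 0 and 5 below. Of the 29 member probe sets, 13 end in _x_at, the array maker's mark for probes that also match other transcripts, and all 3 called H2-D1 probe sets are among them. Since class I heavy chain genes are near copies of each other, the gene that a signal comes from is uncertain for all of them.

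H2-K1 encodes the other classical heavy chain, and its remaining 5 probe sets were not called. 1425336_x_at read 12.94, 11.51 and 12.39 in single-Stat5b, against 13.35, 13.07 and 13.40 in single-Stat5a. The 2 genotypes did not overlap, with a difference of -0.99 (95% interval -1.59 to -0.40, adjusted p = 0.0925). 1427746_x_at differed by -0.68 (adjusted p = 0.244) and 1451931_x_at by -0.57 (adjusted p = 0.254). All 5 differences were below 0. Without single-Stat5b 1, 1425336_x_at passed at -1.32 (adjusted p = 0.0107) and 1424948_x_at at -0.99 (0.0467), and without single-Stat5b 3 the H2-K1 probe set 1451931_x_at passed at -0.79 (0.0305), as did H2-D1 1425545_x_at at -0.93 (0.00587) and 1451784_x_at at -0.86 (0.00596).

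Among the non-classical heavy chains, H2-T23, which encodes the Qa-1 molecule read by natural killer cell receptors, has 2 probe sets that share the symbol H2-T-ps. 1419658_at read 6.22, 6.95 and 5.61 in single-Stat5b, against 7.47, 7.25 and 7.23 in single-Stat5a. The groups did not overlap and the difference was -1.06 (SE 0.27, 95% interval -1.65 to -0.47, adjusted p = 0.0642), short of the threshold. It passed with array quality weights (-1.17, adjusted p = 0.0158) and without single-Stat5b 2 (-1.40, 0.00276). The brighter probe set 1449556_at averaged 11.42 in single-Stat5b and 11.60 in single-Stat5a (-0.18, adjusted p = 0.826). H2-M3, which presents formylated peptides of bacterial or mitochondrial origin, averaged 9.30 in single-Stat5b and 9.46 in single-Stat5a (-0.16, adjusted p = 0.870).

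B2m, the light chain shared by all class I molecules, showed no difference that passed the test. 1449289_a_at read 14.10, 14.33 and 13.93 in single-Stat5b, against 14.00, 14.15 and 14.06 in single-Stat5a. It read 14.15, 14.28 and 14.13 in the arrays labelled Stat5a-/-, against 14.12, 14.22 and 14.01 in Stat5ab+/null. The 4 groups overlapped, and the difference between the single-allele genotypes was 0.05 (95% interval -0.28 to 0.37, adjusted p = 0.941). The other B2m probe set, 1452428_a_at, differed by -0.06 (-0.37 to 0.24, adjusted p = 0.915). The intervals bound the difference in measured signal at 0.37 in size on the log2 scale. B2m signal lies near the top of the scale. Whether signal still follows transcript amount there was not measured, so the bound is not one on transcripts.

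The peptide loading genes were not called either. Tap1, the transporter chain gene, had 4 probe sets with differences between -0.78 and 0.12. The brightest, 1416016_at, read 10.21, 9.23 and 10.80 in single-Stat5b, against 11.06, 10.50 and 11.03 in single-Stat5a (-0.78, 95% interval -1.51 to -0.06, adjusted p = 0.355), and single-Stat5b 3 overlapped single-Stat5a. Tap2, its partner, read 9.63, 8.27 and 9.34 in single-Stat5b, against 8.41, 8.03 and 8.44 in single-Stat5a (0.79, 95% interval 0.15 to 1.43, adjusted p = 0.263). The other Tap1 probe sets, 1448177_at, 1449803_x_at and 1420274_at, differed by -0.30, -0.09 and 0.12. The partners of one transporter thus had differences of opposite sign, neither past the test. Without single-Stat5b 2, in which Tap2 was lowest among the single-Stat5b arrays, Tap2 passed at 1.19 (adjusted p = 0.00698). Tapbp 1421812_at averaged 12.83 in single-Stat5b and 13.35 in single-Stat5a (-0.52, adjusted p = 0.315; -0.75 and 0.0333 without single-Stat5b 3), and 1450378_at averaged 7.12 in single-Stat5b and 7.28 in single-Stat5a (-0.16, adjusted p = 0.871).

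**Figure D3:**
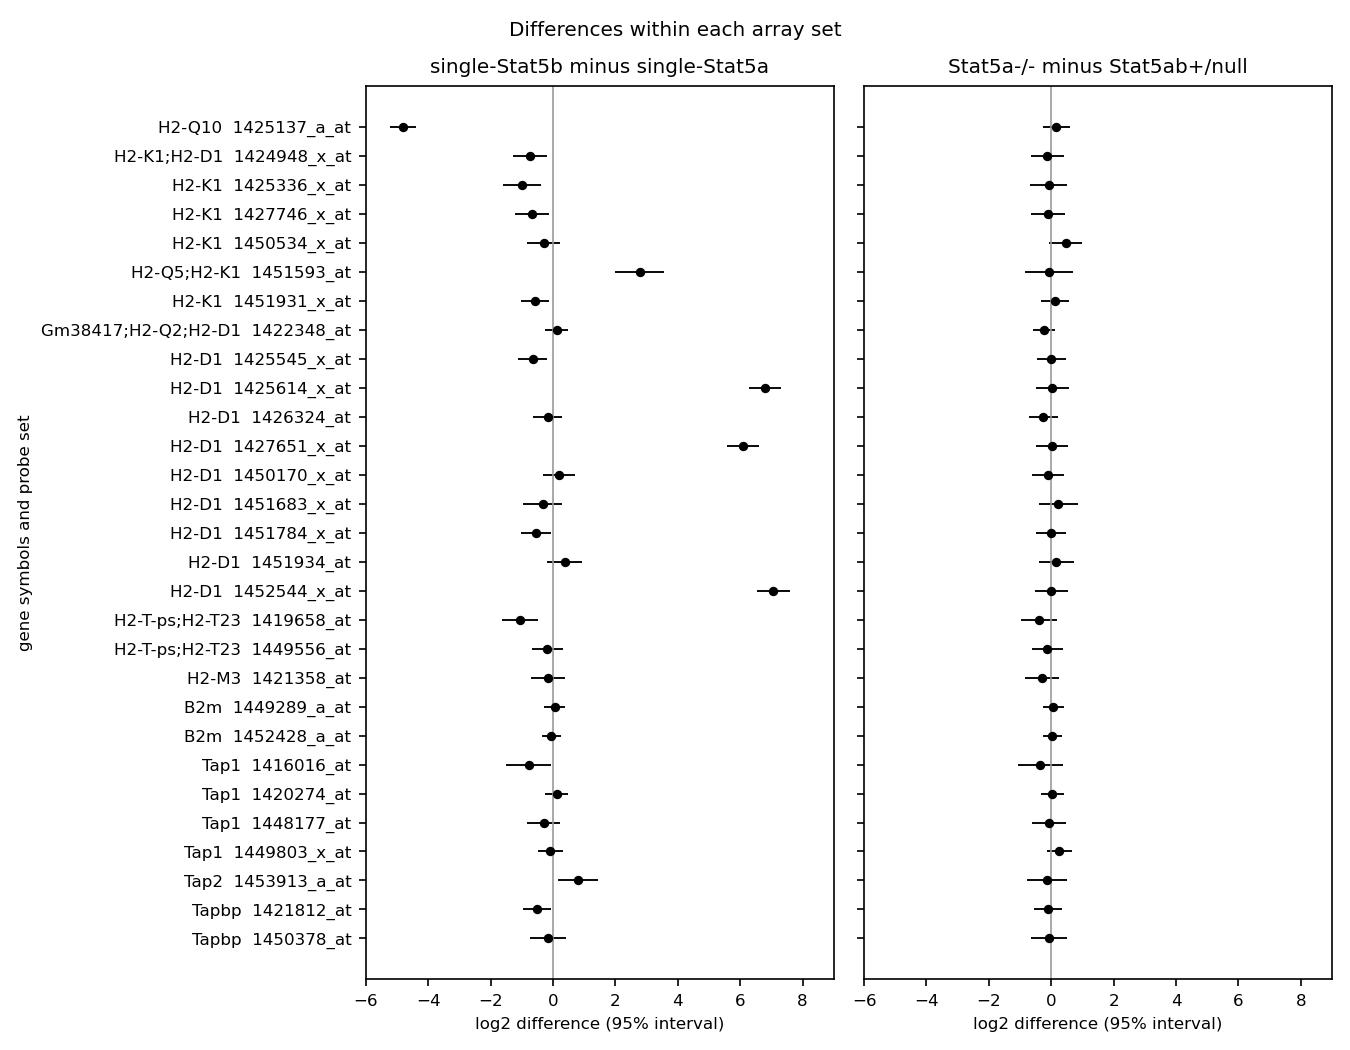
Log2 difference (horizontal axes, with its 95% interval) of each of the 29 probe sets (vertical axis), on the left single-Stat5b minus single-Stat5a and on the right Stat5a-/- minus Stat5ab+/null. On the left H2-Q10 lies at -4.82 and 4 probe sets lie at 2.78 to 7.06, with the other 24 between -1.06 and 0.79, and on the right all 29 lie between -0.39 and 0.46.

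Of the 28 probe sets other than H2-Q10, 10 differences were above 0 and 18 below, with a median of -0.17. The median over all probe sets was 0.024. The 24 uncalled ones had 6 differences above 0 and 18 below and a median of -0.24. Leaving out the 4 called, all above 0, itself moves that median down. Some of these probe sets also match other transcripts, so the counts are not independent. Single-Stat5b 2 was the lowest of its 3 arrays in 19 of the 29 member probe sets. Its median over all probe sets was also the lowest, 7.34 against 7.42 in single-Stat5b 1 and 7.50 in single-Stat5b 3. The same count was not made over all probe sets. The spread within single-Stat5b was the widest, with a median SD over the 29 probe sets of 0.514, against 0.206 in single-Stat5a, 0.0978 in the arrays labelled Stat5a-/- and 0.101 in Stat5ab+/null. One spread pooled over the 4 genotypes can therefore be too small for single-Stat5b and too large for the 2-allele genotypes. When only the brightest probe set of each gene was tested, 0 members were called: among probe sets that name 1 gene, the brightest of H2-D1 is 1425545_x_at and that of H2-K1 is 1425336_x_at, both uncalled, and the called H2-Q5;H2-K1 probe set, which names several genes, did not enter.

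Between the arrays labelled Stat5a-/- and Stat5ab+/null, 0 of the 29 member probe sets were called by limma, and 0 had an unadjusted p under 0.05. Of all probe sets 0.00666% were called, and 1429 had an unadjusted p under 0.05. The 28 probe sets other than H2-Q10 ran between -0.39 (H2-T23, 1419658_at) and 0.46 (H2-K1, 1450534_x_at), with a median of -0.07. For 1450534_x_at the arrays labelled Stat5a-/- read 9.03, 9.30 and 9.20, against 8.67, 8.72 and 8.76 in Stat5ab+/null. H2-T23 1419658_at read 5.72, 5.83 and 6.19 in the arrays labelled Stat5a-/-, against 6.41, 6.28 and 6.24 in Stat5ab+/null. The groups did not overlap in either case, as was so for 7649 of the 45037 probe sets, and neither passed the test (adjusted p = 1.00 each).

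The difference between the single-allele genotypes was tested against that between the 2-allele genotypes. For 0.950% of all probe sets the 2 differences differed from each other, among them 4 of the 28 members. These were H2-D1 1452544_x_at (7.06, adjusted p = 4.6e-07), 1425614_x_at (6.76, 5.0e-07) and 1427651_x_at (6.08, 1.0e-06), and H2-Q5;H2-K1 (2.85, 0.0155).

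Levels set across the array sets carry the split between them. Of the 29 member probe sets 22 had a lower mean in the single-allele set, and 6 differed by more than 2 on the log2 scale. Of these 6, 4 are the probe sets called between single-Stat5b and single-Stat5a, whose means in those 2 genotypes lie 2.78 to 7.06 apart, so that a mean over the set joins unlike levels; the others are Tapbp 1450378_at and H2-K1 1450534_x_at. The Tapbp probe sets went opposite ways, 0.98 for 1421812_at and -3.63 for 1450378_at, as the single-allele minus the 2-allele set. H2-K1 1450534_x_at differed by -3.89, at means of 4.91 in single-Stat5b and 5.20 in single-Stat5a, and of 9.18 in the arrays labelled Stat5a-/- and 8.72 in Stat5ab+/null. Probe sets of 1 gene thus did not share the difference between sets, and the actin 3′ minus 5′ signal differed between the same sets; its part in these values was not tested.

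Relatives of the members were described from lists, probe sets of the members left out. Of 26 other class I heavy chain genes listed from the H2 region, 15 had probe sets, 16 in all, and 3 of these were called between the single-allele genotypes, all lower in single-Stat5b and so in the direction of H2-Q10. Over all probe sets the share called was 2.70%, with 1.65% lower. The probe set of H2-Q6 and H2-Q8 (1431008_at) averaged 8.20 ± 0.58 in single-Stat5b and 11.01 ± 0.22 in single-Stat5a (n = 3, ± SD; limma adjusted p = 3.7e-04 at -2.81). It stood at 10.96 in the arrays labelled Stat5a-/- and 11.32 in Stat5ab+/null, on the other array set. It was thus low in single-Stat5b alone, whereas H2-Q10 was high in single-Stat5a alone. H2-Q2 (1418734_at) averaged 3.66 ± 0.28 in single-Stat5b and 5.80 ± 0.60 in single-Stat5a (limma adjusted p = 6.6e-04), both under log2 6.04. H2-Q5 (1430802_at) averaged 6.39 ± 0.44 in single-Stat5b and 8.10 ± 0.37 in single-Stat5a (limma adjusted p = 0.00407), and another H2-Q5 probe set, 1450582_at, differed by 0.47 (0.447). The H2-Q5 call was lost with array quality weights (0.0543). On the other array set H2-Q5 1430802_at averaged 7.93 in the arrays labelled Stat5a-/- and 8.04 in Stat5ab+/null, near single-Stat5a and unlike H2-Q10. H2-Q2 averaged 4.06 in the arrays labelled Stat5a-/- and 4.80 in Stat5ab+/null, both below single-Stat5a. The list had a median difference of -0.07.

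Of 9 probe sets of the 6 class I-like genes outside the H2 region, 3 were called between the single-allele genotypes, against 2.70% of all probe sets. Cd1d2, a relative of the lipid-presenting Cd1d1, averaged 7.46 ± 0.30 in single-Stat5b and 5.61 ± 0.41 in single-Stat5a (n = 3, ± SD; limma adjusted p = 3.1e-04), and was the 1 called higher. Azgp1, a secreted class I-like protein that acts on fat, averaged 5.49 ± 0.37 in single-Stat5b and 7.26 ± 0.29 in single-Stat5a (limma adjusted p = 3.9e-04). Hfe, which regulates iron uptake, fell by 1.85 in 1 probe set (1450702_at, adjusted p = 0.0105), and differed by -0.95 in the other. The Hfe call was lost in 4 of 21 alternatives, without single-Stat5b 1 (0.0506), without single-Stat5a 2 (0.0517), with only the groups compared (0.104) and with 4 arrays left out together (0.301).

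The steps that feed class I molecules with peptide showed few calls, in a comparison that called 2.70% of all probe sets. None of the 6 immunoproteasome probe sets passed (median -0.24), with Psme1, the proteasome activator gene, at -0.51 (adjusted p = 0.592) and Psmb8 1422962_a_at at -0.16 (0.903). None of the 3 constitutive catalytic subunit probe sets passed, with Psmb6 at -0.14 and Psmb5 at -0.18. Of 24 probe sets of folding and trimming genes, 1 was called, a probe set of Pdia3, the ERp57 oxidoreductase of the loading complex (1445330_at, fell by 0.88, adjusted p = 0.0289; lost in 8 of 21 alternatives), while another, 1423423_at, differed by -0.28 and was not called. Calr and Canx, the chaperones of the heavy chain, differed by 0.04 to 0.17 and by -0.06 to 0.24 over their probe sets. None of 15 probe sets of class I regulators passed: Nlrc5, the class I transactivator, differed by -0.62 (adjusted p = 0.313), Nfyc by 0.00 and Irf1 by -0.23.

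Interferon response genes, which share an inducer with class I genes, had 20 of 24 differences below 0 and a median of -0.39. Over all probe sets 21044 of 45037 differences were below 0, with a median of 0.024. One of the 24 was called, Ifit3, an antiviral RNA-binding protein gene, which fell by 1.27 (SE 0.19, adjusted p = 0.0017; 0.0793 with 4 arrays left out together). In class II presentation, the pathway for peptides taken up from outside, 4 of 26 probe sets were called, against 2.70% of all probe sets. H2-Ea, a class II alpha chain, went the way of the 3 H2-D1 probe sets: 1422892_s_at averaged 13.02 in single-Stat5b, 5.24 in single-Stat5a, 13.49 in the arrays labelled Stat5a-/- and 13.46 in Stat5ab+/null. Its second probe set, 1422891_at, was higher by 6.02. H2-Aa, the alpha chain of the other class II molecule, fell by 1.36 (adjusted p = 0.00531; 0.0643 with 4 arrays left out together) and 2.34 (0.00417) in 2 of its 4 probe sets, with 0.01 and -0.76 in the others. Cd74, the invariant chain, differed by -0.70 (0.378). No probe set of any of these lists was called between the arrays labelled Stat5a-/- and Stat5ab+/null.

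Class I and class II genes are rich in immune cells, so cell markers were read beside them. The mean of B and plasma cell markers was 6.64 to 7.68 in single-Stat5b and 6.43 to 7.35 in single-Stat5a, and that of T cell markers 6.35 to 7.62 in single-Stat5b and 6.72 to 7.02 in single-Stat5a. Macrophage markers averaged 11.7 to 12.5 in single-Stat5b and 12.1 to 12.2 in single-Stat5a. No probe set of these 3 lists was called. Luminal epithelial markers averaged 10.7 to 11.3 in single-Stat5b and 10.26 to 10.9 in single-Stat5a, with all 16 differences above 0 (median 0.35). Endothelial markers averaged 9.00 to 9.41 in single-Stat5b and 9.60 to 9.88 in single-Stat5a without overlap, with 9 of 12 differences below 0. No probe set of either list was called, and their part in the members' differences was not tested. With B and T cell means as covariates 4 member probe sets were called. Those means overlapped between single-Stat5b and single-Stat5a, so this setting could take up little of a difference between these genotypes. Skeletal muscle markers averaged 7.71 to 10.7 in single-Stat5b and 9.65 to 13.4 in single-Stat5a, with 0 of 12 called, and their part was not tested. In the 2-allele set the B cell mean ran between 6.64 and 10.8 in the arrays labelled Stat5a-/- and between 7.47 and 11.2 in Stat5ab+/null.

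All members but B2m, which is on chromosome 2, lie on chromosome 17, and their neighbours were read in gene order between the first, Tapbp, and the last, H2-M3. Counting probe sets that name 1 gene, and leaving out the members, 14 of 201 in that stretch (6.97%) were called between single-Stat5b and single-Stat5a, 4 higher and 10 lower. Probe sets of several genes, such as that of H2-Q6 and H2-Q8, are not in these counts. On the rest of chromosome 17 it was 43 of 1278 (3.36%), and on other chromosomes 791 of 33383 (2.37%). Some genes had more than 1 called probe set. Counted by gene, the shares called were closer together. They were 10 of 124 (8.06%) in the stretch without the members, 42 of 708 (5.93%) on the rest of chromosome 17 and 705 of 17306 (4.07%) on other chromosomes. None of the 223 in the stretch, members included, was called between the arrays labelled Stat5a-/- and Stat5ab+/null. Called neighbours beside those named above were Cdsn (-6.18), Vps52 (-5.19 and -1.47 in 2 probe sets), AA388235 (-2.08), Msh5 (1.68), Abhd16a (-1.32 and -1.12) and Cyp21a1 (0.83). With only the groups compared, Msh5 (adjusted p = 0.106), both Abhd16a probe sets (0.0635 and 0.0687) and Cyp21a1 (0.153) lost their calls, as they did with 4 arrays left out together, and Msh5 lost it in 5 of 21 alternatives, without single-Stat5a 1 (0.0665), without single-Stat5a 2 (0.0667) and without single-Stat5b 1 (0.0617) among them; the smaller Vps52 difference lost its call with 4 arrays left out (0.0562). Vps52 1447894_x_at, of a gene for a subunit of a tethering complex of the Golgi that neighbours H2-K1, averaged 4.21 ± 0.23 in single-Stat5b and 9.40 ± 0.13 in single-Stat5a (n = 3, ± SD; limma adjusted p = 4.8e-08). Calls of both directions thus lay side by side in this stretch. The RefSeq table, built on C57BL/6J, lists H2-Ea, H2-Q5 and Cd1d2 as transcribed pseudogenes. The H2 alleles these mice carry are not given in the labels, and their part in the differences of H2 genes was not tested.

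**Figure D4:**
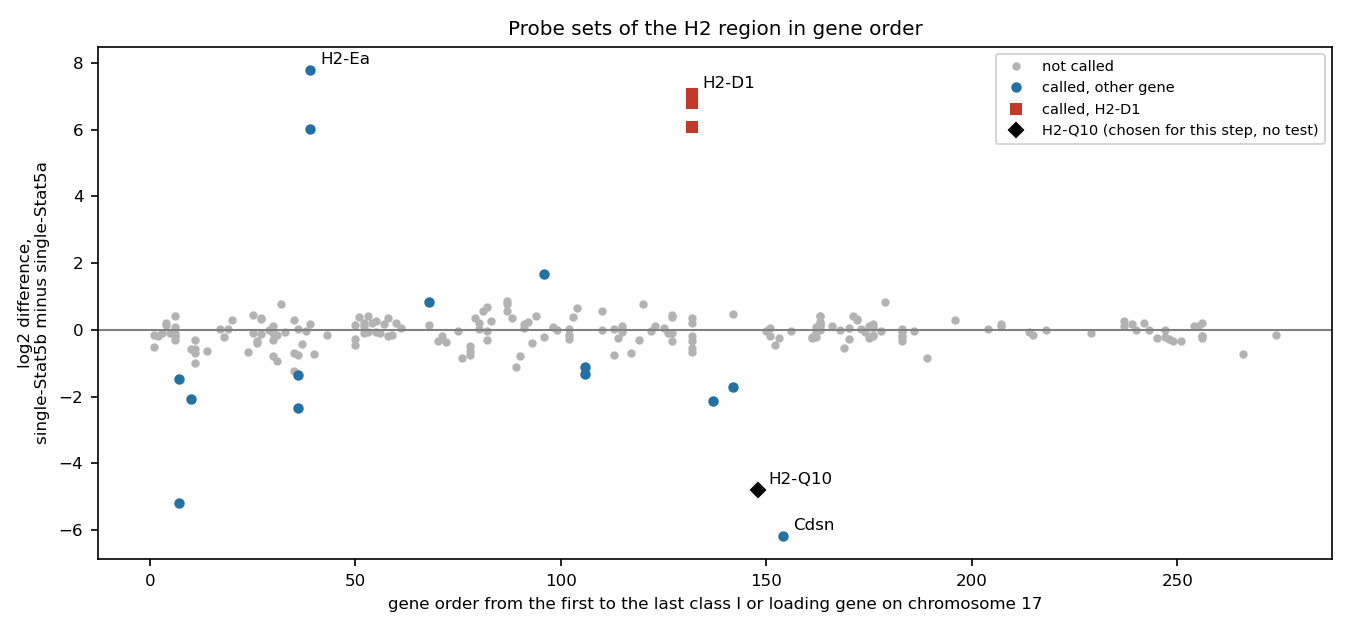
Log2 difference of single-Stat5b minus single-Stat5a (vertical axis) for 223 probe sets in gene order along the H2 stretch of chromosome 17 (horizontal axis, not to physical scale). Called probe sets are coloured, H2-Q10 is the black diamond, and the largest differences of either sign are those of H2-Ea (7.78), H2-D1 (6.09 to 7.06), Cdsn (-6.18), Vps52 (-5.19) and H2-Q10 (-4.82).

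The genes whose signal followed that of H2-Q10 most closely over the 12 arrays, with 1 probe set per gene, were Trim12a (Pearson r = 0.987, chromosome 7), Cdsn, the corneodesmosin gene (0.982, chromosome 17), Tmem237 (0.979, chromosome 1), Ifi213 (0.969, chromosome 1), Phkg1, a phosphorylase kinase subunit of muscle (0.962, chromosome 5), Chil3 (0.957, chromosome 3) and 4930402H24Rik (0.955, chromosome 2). These 12 arrays share the genotypes and array sets, so r describes a likeness of levels over genotypes and is no test. Tmem237 averaged 7.17 in single-Stat5b, 9.28 in single-Stat5a, 7.75 in the arrays labelled Stat5a-/- and 7.69 in Stat5ab+/null. Ifi213, of an interferon-inducible family, averaged 4.73 in single-Stat5b, 6.39 in single-Stat5a, 4.71 in the arrays labelled Stat5a-/- and 4.67 in Stat5ab+/null. No other member was among them, which says little about a shared step. Each gene entered by its brightest probe set naming 1 gene alone. The called H2-D1 and H2-Q5;H2-K1 probe sets therefore could not enter.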

How the data were processed

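The authors deposited 1 log2 value for each probe set of an Affymetrix mouse array; biotin-labelled cRNA was made from total RNA, per the labels' protocols. Partek and RMA are named in the submitters' processing notes, with versions and settings not given in the sources used here. Members, lists and tests were chosen with earlier results of these data known. Genes were named through the platform annotation: of 45037 probe sets other than 64 controls, 34945 named 1 gene, 932 several and 9160 none. One mean per genotype was fitted to all probe sets with limma 3.58.1 in R 4.3.3, with no filter on low signal, moderated 2-sided tests and Benjamini-Hochberg adjustment over all probe sets, calling at an adjusted p under 0.05; the fit was tested on simulated data. The p-values measure the spread between arrays of separate mice, 3 per genotype, which limits the precision; an exact permutation test of 3 against 3 cannot go below 0.1. Groups came from the genotype labels and replicates were numbered in record order.

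The text names every member probe set, up to 4 called genes of each list in each comparison or else the 2 brightest, up to 10 called genes of the H2 stretch, the 8 genes most like H2-Q10, H2-Ea, Stat5a and Stat5b; a few values beside these (Nlrc5, Irf1, Calr, Canx, Cd74, Alb, Psmb8 and H2-Q10's near copies) were added after they were seen. A microRNA symbol among the 8 is not reported, since no match of the probe set to the microRNA was made. Promoter windows came from RefSeq tables on GRCm38.p6, which held 8 of the 9 genes; the motif letters are shortened cores, set after longer forms had been searched in the same windows. Coordinates from other tables are not given, since no build is named for the arrays. Alternatives were filters at the 30th and 50th percentile, quantile normalization, median centring, 1 probe set per gene, a trended robust variance, array weights, only the groups compared, B and T cell marker means as covariates, and each array left out in turn. A setting with 4 arrays left out together was added after seeing the data.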

Additional observations from a re-analysis of the deposited data

Results flagged for a closer look

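These probe sets had a difference between single-Stat5b and single-Stat5a that itself differed from the one between the arrays labelled Stat5a-/- and Stat5ab+/null. Each value is the first log2 difference minus the second, with limma's adjusted p over all probe sets. The genes other than the members were looked at here only because their first difference was called. That difference is part of the value, so their adjusted p-values add no separate support. Positive values were found for H2-Ea at 7.76 (1422892_s_at, adjusted p = 2.1e-06) and 5.97 (1422891_at, 2.6e-05), for H2-D1 at 7.06 (1452544_x_at, 4.6e-07), 6.76 (1425614_x_at, 5.0e-07) and 6.08 (1427651_x_at, 1.0e-06), for H2-Q5;H2-K1 at 2.85 (0.0155) and for Cd1d2 at 1.71 (0.0175). Negative values were found for Cdsn at -6.53 (1.3e-05), Vps52 at -4.68 (1447894_x_at, 8.3e-06), H2-Aa at -2.64 (1443783_x_at, 0.0418), the probe set of H2-Q6 and H2-Q8 at -2.45 (0.0290), Azgp1 at -2.19 (0.00262), AA388235 at -1.71 (0.00941) and Ifit3 at -1.41 (0.0213). The groups held 3 arrays each, too few for single arrays to be tested as outliers.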

How the results depend on the processing

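No paired analysis was possible because the labels give no replicate numbers that the genotypes share. The differences of the member probe sets were recomputed under 22 alternatives, 12 of which leave out 1 array: of 1208 values none lost a call, 45 of uncalled probe sets changed sign with 95% intervals that hold 0 before and after, and 9 passed where they had not before, those of H2-K1, H2-D1, H2-T23, Tap2 and Tapbp given above. Most of the 1208 values had no call to lose, since only 4 member probe sets were called, all in the single-allele comparison. The 3 H2-D1 calls and that of H2-Q5;H2-K1 held wherever they were tested, at 5.91 to 7.41 and 2.57 to 3.15. Of 672 values of other named genes, 76 lost their call and none changed sign. Member probe sets called between single-Stat5b and single-Stat5a numbered 4, against 0 with 1 probe set per gene and 4 to 8 with 1 array left out (8 without single-Stat5b 3). For the difference of differences it was 4, against 0 with 1 probe set per gene and 3 to 5 with 1 array left out. Of all probe sets, 1217 were called between single-Stat5b and single-Stat5a, 534 with the filter at the 50th percentile, 400 with 1 probe set per gene, 545 with only the groups compared, 558 with 4 arrays left out together, and 939 to 2740 with 1 left out (2740 without single-Stat5b 3). Between Stat5a-/- and Stat5ab+/null it was 3, against 1 with 1 probe set per gene, 346 with array weights, 5 with only the groups compared, 0 with B and T cell covariates, 0 with 4 arrays out, and 0 to 5 with 1 left out; none was a member. For the difference of differences it was 428, against 202, 129, 877 and 147 with the 50th percentile filter, 1 probe set per gene, array weights and 4 arrays out, and 288 to 659 with 1 left out (659 without single-Stat5b 2). Fewer probe sets or arrays enter several of these settings; beyond that the cause was not tested. Background signal was not measured, so differences from means near log2 6.04 may be too small.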
